A study of Mus musculus with 6 samples.

Results

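The p53 pathway is described here through 10 genes out of the 55450 in the deposited tables: Trp53, its inhibitors Mdm2 and Mdm4, and the p53 target genes Cdkn1a, Ccng1, Phlda3, Zmat3, Sesn1, Trp53inp1 and Eda2r. They were taken by gene symbol, each symbol had 1 row, and the set was chosen by the TPM and counts of these tumours, in which Mdm2 was already known to be very abundant, so that level is a description and carries no test. The tumours grew under the skin of the right flank of C57BL/6 mice that had been injected with MTE-Ras cells, a tracheal epithelial cancer line of the mouse transformed by oncogenic RAS. In 3 tumours phosphate-buffered saline (PBS) was injected into the lesion, and in the other 3 PV-10, a solution of the dye rose bengal that is given by injection into tumours. The labels give no dose, no interval between injection and collection, no age of the animals and no p53 genotype of the cells, all tumours came from 1 cell line, and total RNA of the whole tumour was sequenced in strand-specific libraries.

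The p53 protein is a transcription factor that is kept scarce by Mdm2, a ubiquitin ligase that marks it for degradation, together with Mdm2's relative Mdm4, which binds and inhibits p53. Stress kinases and acetyltransferases loosen this hold, p53 then activates genes for cell-cycle arrest, DNA repair, metabolism and cell death, and Mdm2 is itself among its targets, which closes a feedback loop. Because p53 is controlled mostly as a protein, RNA levels of Trp53 and of its targets need not move together, and protein was not measured.

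Gene counts summed to between 87386266 and 98717951 in the PBS tumours and between 36730318 and 94203331 in the PV-10 tumours, and the 10 genes each had at least 764 counts in every tumour. Genes with at least 1 count numbered 19163, 22895 and 23068 in PBS tumours 1, 2 and 3. They numbered 35314, 28343 and 22764 in PV-10 tumours 1, 2 and 3. PV-10 tumour 3 stood apart from the other PV-10 tumours: across genes, its log2 CPM (counts scaled to library size) correlated at 0.909 to 0.930 with the PBS tumours, 0.874 with PV-10 tumour 1 and 0.822 with PV-10 tumour 2, so results are given with and without it. Counts also leaned toward short transcripts in the PV-10 tumours. Per doubling of effective length, log2 CPM changed by 0.0543 to 0.115 in PBS tumours and by -0.108 to -0.0439 in PV-10 tumours. Of the epithelial markers, Krt8, Krt18 and Krt19 were present (18.4 to 219 TPM, a level scaled by gene length), whereas Epcam and Krt5 were at 0.54 TPM or less in every tumour. In whole tumours, fewer cells of a type and less RNA per cell cannot be told apart.

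The short sequences below are shown because p53 binds a response element made of a pair of half-sites. They are the places near a transcript start of these genes where such letters occur. RefSeq promoter windows (250 bases before to 50 after a transcript start, GRCm38.p6) matched 8 of the 10 genes with 11 windows. Zmat3 and Trp53inp1 had no entry. The p53 consensus half-site, which reads the same on both strands, was found in 5 of these 11 windows and in 8.36% of all 32851 windows. A full response element, 2 half-sites side by side with up to 2 mismatches to the consensus, was found in 2 of the 11 windows and in 0.798% of all. Each is printed 5′ to 3′ on the gene's strand, with the matching letters in capitals.
Cdkn1a response element, chr17:29090923-29090952, plus strand: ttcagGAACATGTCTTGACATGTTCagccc
Ccng1 response element, chr11:40755457-40755486, minus strand: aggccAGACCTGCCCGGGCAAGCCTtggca
Mdm2 half-site, chr10:117710925-117710954, minus strand: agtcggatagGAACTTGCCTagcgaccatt
Trp53 half-site, chr11:69580274-69580303, plus strand: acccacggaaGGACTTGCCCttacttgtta
Sesn1 half-site, chr10:41887256-41887285, plus strand: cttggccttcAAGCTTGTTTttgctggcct
The capitals begin 51 bases before the window's transcript start in Cdkn1a, 195 in Ccng1, 186 in Mdm2, 75 in Trp53 and 173 in Sesn1. Cdkn1a, Mdm4 and Sesn1 had 2 windows each. For Sesn1 that start is internal. Its half-site lies inside the gene, which spans 41809935 to 41908424. The Cdkn1a and Ccng1 elements each differ from the consensus at 1 position, and each contains a half-site that was counted above. Cdkn1a has a further half-site 73 bases before its start. These are matches of letters, not measured binding. The p53-responsive promoter for which Mdm2 is known lies in its first intron, outside the window.

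Mdm2 was by far the most abundant of the 10 genes, and it stayed high in every tumour. Mdm2 (ENSMUSG00000020184.15, mm10 chromosome 10, 117688875 to 117710758, minus strand) stood at 543.55, 673.95 and 487.14 TPM in PBS tumours 1, 2 and 3 and at 284.95, 263.16 and 486.51 TPM in PV-10 tumours 1, 2 and 3. All PV-10 tumours were lower on this scale, PV-10 tumour 3 by less than 1 TPM below the lowest PBS tumour. Mdm2 ranked 117, 105 and 129 among all genes in the PBS tumours and 210, 230 and 143 in the PV-10 tumours, and among 21951 protein-coding genes it ranked 90, 75, 98, 167, 183 and 107. By mean TPM over the 6 tumours, 456.5, it was in place 150. Arf4, a small GTPase of membrane traffic (469), the histone gene Hist1h2ak (467.5) and the ribosomal fusion gene Fau (459.2) came just above it. The small nucleolar RNA Snora7a (456.2), the translation elongation factor Eef2 (448.0) and the ribosomal scaffold Rack1 (440.2) came just below. The ranges of all of these over the 6 tumours overlapped that of Mdm2, so its exact place in that order is within their spread.

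In CPM, scaled by the trimmed mean of M values (TMM), Mdm2 did not separate the groups. It stood at 1894, 1640 and 1368 CPM in the PBS tumours and at 1763, 1465 and 1948 CPM in the PV-10 tumours, so the groups overlapped fully and the highest value was that of PV-10 tumour 3. The means were 1634 ± 263 and 1725 ± 244 CPM (SD, n = 3 each), a log2 difference of 0.08 (SE 0.28, edgeR quasi-likelihood test, adjusted p = 0.866). Relative to the median of all genes tested the change was -0.22 in counts and -0.55 in log2(TPM + 1), but 0.17 with a mean count of at least 50. The unshifted value reversed to -0.76 in log2(TPM + 1), where the median of all genes was -0.21, beside 0.30 in counts. Between these 2 scales only the sign of the unshifted value changed.

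The genes beside Mdm2 on chromosome 10 were mostly at low or ordinary levels. Among the 10 protein-coding genes on each side, 10 of 20 had a mean under 1 TPM and 6 a mean of at least 10 TPM, and the median of the 20 means was 1.23 TPM, beside 1.22 TPM over all protein-coding genes. The nearest on one side, the carboxypeptidase gene Cpm, 1523 bases away, had a mean of 1.58 TPM, and the nearest on the other, the transporter Slc35e3, 22921 bases away, 4.62 TPM. The 6 higher ones were the chaperonin subunit Cct2 (106.9), the receptor adaptor Frs2 (22.7), the chromatin reader Yeats4 (32.2), the macrophage lysozyme Lyz2 (351.8), the RNA 3′ end processing factor Cpsf6 (19.8) and the small GTPase Rap1b (54.9). The mean of Mdm2 over the 6 tumours was 1.3 times that of Lyz2, the highest of them. In PV-10 tumours 1 and 2, however, Lyz2 was the higher, at 354.81 and 414.5 TPM beside 284.95 and 263.16 TPM for Mdm2. Of the 6, Yeats4 passed as higher, from 33.6 ± 1.71 to 93.6 ± 26.7 CPM, and Rap1b from 131.7 ± 9.88 to 364 ± 108 CPM (SD, n = 3 each, edgeR adjusted p = 0.0443 for both), where 3.17% of all genes passed as higher. With either length trend removed no gene of the table passed. DNA copy number was not measured.

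**Figure D1:**
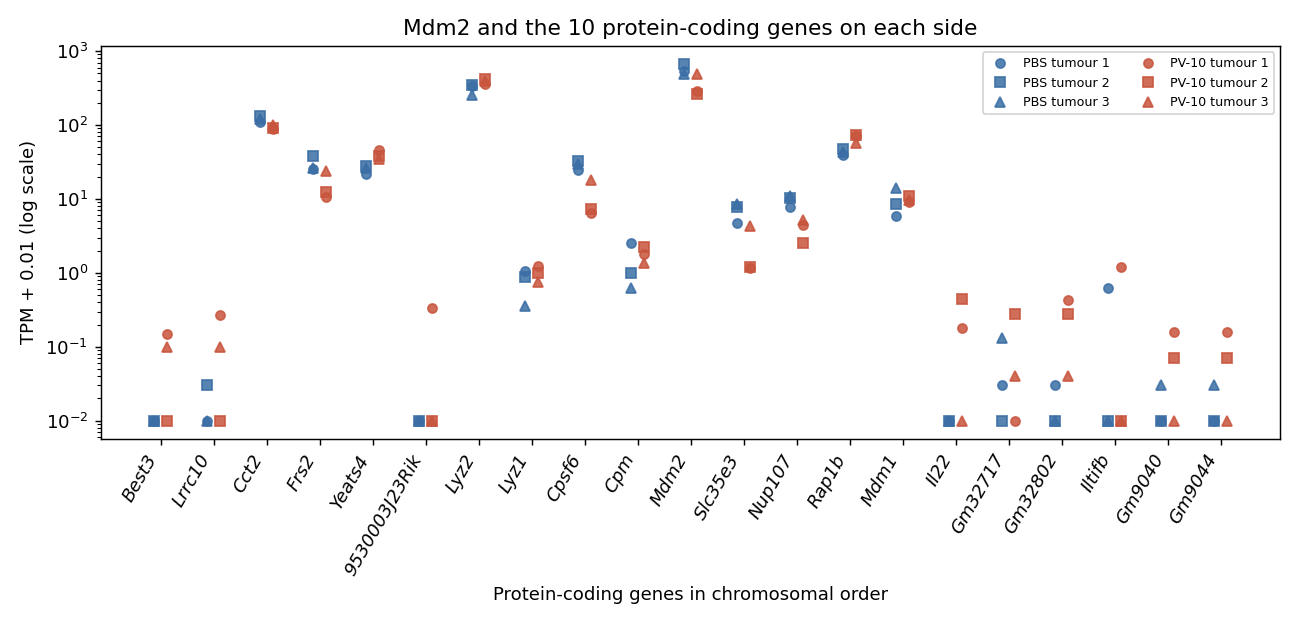
Level of Mdm2 and of the 10 protein-coding genes on each side of it in chromosomal order, as TPM plus 0.01 on a log axis, with 1 point per tumour (blue PBS, red PV-10). Mdm2 lies between 263.16 and 673.95 TPM, while 10 of its 20 neighbours have a mean under 1 TPM.

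None of the 10 genes passed the test between PV-10 and PBS tumours at an adjusted p under 0.05, where 5.09% of all 22056 genes tested did (3.17% higher, 1.92% lower). The lowest adjusted p of any gene was 0.0443, and 4 of the 10 lay just past the threshold: Ccng1, which encodes cyclin G1, was higher and Cdkn1a, Zmat3 and Mdm4 were lower, at adjusted p of 0.0505 to 0.0653. These 4 also had an unadjusted p under 0.05, as did 6627 of all genes. The log2 change was negative in 6 of the 10 genes, against 41.5% of all genes, and the median of the 10 was -0.12, against 0.30 for all genes. Scaling moved this background: the median of all genes was 0.43 with DESeq2 size factors, -0.21 in log2(TPM + 1) and -0.02 when PV-10 tumour 3 alone was set against PBS. The median of the 10 was then -0.02 with DESeq2 size factors, -0.89 in log2(TPM + 1) and 0.16 for PV-10 tumour 3 alone, so the last lay above the median of all genes. With a mean count of at least 50 it was 0.03 beside 0.06 for all genes.

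In TPM, 8 of the 10 genes were lower in every PV-10 tumour than in any PBS tumour, where 31.0% of all genes tested were, and 1, Ccng1, was higher in every PV-10 tumour, where 9.58% of all were. In CPM, 3 of the 10 lay wholly below (16.8% of all genes) and 1 wholly above (22.0% of all), with 6 overlapping. The middle position of PV-10 tumour 3 recurred: in 8 of the 10 genes its TPM lay above PV-10 tumours 1 and 2 and below every PBS tumour, as in 26.6% of all genes.

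**Figure D2:**
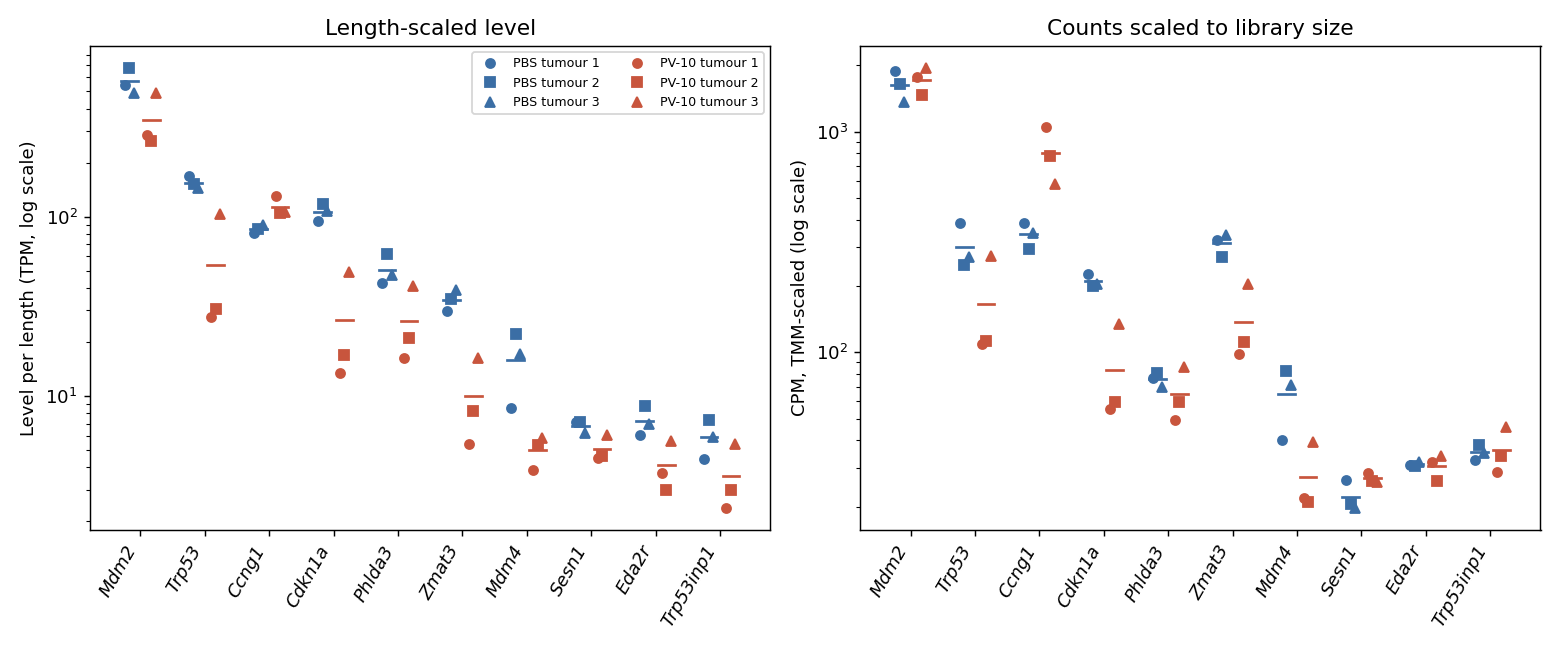
Levels of the 10 genes in each tumour, in TPM (left) and TMM-scaled CPM (right), on log axes; short lines are group means and shapes are tumours 1, 2 and 3. Only Ccng1 lies higher in all PV-10 tumours on both scales, and PV-10 tumour 3 is mostly the red point nearest the blue ones.

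Trp53, the gene of p53 itself (ENSMUSG00000059552.13, chromosome 11, 69580359 to 69591873, plus strand), was abundant in PBS tumours, at 168.06, 151.31 and 144.50 TPM. In PV-10 tumours 1, 2 and 3 it stood at 27.51, 30.60 and 103.17 TPM. PV-10 tumours 1 and 2 were at 17.8% and 19.8% of the PBS mean and tumour 3 at 66.7%, with no overlap between the groups. In CPM the values were 385, 248 and 271 in PBS and 109, 113 and 275 in PV-10 tumours, so PV-10 tumour 3 fell among the PBS tumours on that scale. The mean was 301 ± 73.6 in PBS and 165 ± 94.6 CPM after PV-10 (SD, n = 3 each), a log2 difference of -0.87 (SE 0.40, edgeR adjusted p = 0.183). Without PV-10 tumour 3 it was -1.44 (adjusted p = 0.00324, where 41.4% of all genes passed), and with PV-10 tumour 3 alone -0.12 (adjusted p = 0.879). In log2(TPM + 1) Trp53 passed at -1.77 (limma adjusted p = 0.026, where 18.3% of all genes passed). Over all alternatives its adjusted p ran from 0.00324 to 0.879.

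Mdm4, the non-degrading inhibitor of p53 (ENSMUSG00000054387.13, chromosome 1, 132959484 to 133030561, minus strand), was much scarcer than Mdm2. It stood at 8.52, 22.24 and 17.04 TPM in PBS and at 3.88, 5.31 and 5.81 TPM in PV-10 tumours. The groups did not overlap, PBS tumour 1 was the lowest of its group, and PV-10 tumour 3 was close to PV-10 tumour 2. In CPM it stood at 40.2, 82.5 and 70.8 in PBS and at 21.9, 20.9 and 39.1 in PV-10 tumours, a scale on which PBS tumour 1 and PV-10 tumour 3 nearly met. The log2 change was -1.24 (SE 0.36, edgeR adjusted p = 0.0653), from 64.5 ± 21.9 to 27.3 ± 10.25 CPM (SD, n = 3 each).

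Cdkn1a, which encodes the cyclin-dependent kinase inhibitor p21 and is the best known arrest gene under p53 (ENSMUSG00000023067.14, chromosome 17, 29090976 to 29100727, plus strand), had the largest negative change of the 10. It stood at 94.34, 116.81 and 107.99 TPM in PBS and at 13.43, 16.94 and 49.09 TPM in PV-10 tumours. The PBS tumours were close together, PV-10 tumours 1 and 2 were at 12.6% and 15.9% of their mean, and PV-10 tumour 3 at 46.1%. In CPM it stood at 226, 199.9 and 205 in PBS and at 55.5, 59.3 and 135 in PV-10 tumours. The log2 change was -1.34 (SE 0.37, edgeR adjusted p = 0.0594), from 210.1 ± 13.8 to 83.2 ± 44.8 CPM (SD, n = 3 each). It kept its sign in all alternatives, from -2.24 in log2(TPM + 0.1) to -0.63 for PV-10 tumour 3 alone, with adjusted p from 0.000512 to 0.247.

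Zmat3, a p53 target whose zinc finger protein binds RNA (ENSMUSG00000027663.12, chromosome 3, 32334792 to 32366014, minus strand), had the same order of the PV-10 tumours as Cdkn1a, with tumour 3 highest and tumour 1 lowest. It stood at 29.91, 34.56 and 38.85 TPM in PBS and at 5.42, 8.21 and 16.36 TPM in PV-10 tumours. The groups did not overlap in TPM or in CPM, where it stood at 325, 271 and 341 against 98.1, 111 and 203. The log2 change was -1.18 (SE 0.33, edgeR adjusted p = 0.0608), from 312 ± 36.6 to 138 ± 57.4 CPM (SD, n = 3 each). With 3.43 times the effective length of the median gene, it was the longest of the 10, and removing the trend with effective length moved its change to -0.77 (adjusted p = 0.155), by more than 1.5 times.

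Ccng1, the cyclin G1 gene, whose product recruits a phosphatase to Mdm2 (ENSMUSG00000020326.7, chromosome 11, 40748552 to 40755311, minus strand), was the one gene of the 10 that was higher in every PV-10 tumour on both scales. It stood at 80.94, 85.49 and 89.72 TPM in PBS and at 129.47, 104.32 and 106.02 TPM in PV-10 tumours. In CPM it stood at 386, 295 and 348 in PBS and at 1049, 779.7 and 583 in PV-10 tumours, with PV-10 tumour 3 again nearest to PBS. The log2 change was 1.23 (SE 0.30, edgeR adjusted p = 0.0505), from 343 ± 45.8 to 804 ± 234 CPM (SD, n = 3 each). In log2(TPM + 1) the change was 0.40 (limma adjusted p = 0.339), and over all alternatives it was positive, from 0.40 to 1.43, with adjusted p from 0.000243 to 0.339. Relative to the median of all genes tested it was 0.93, but -0.47 without a low-count filter and -0.49 with DESeq2, where that median was 1.63 and 1.84. Ccng1 and Cdkn1a, the pair with a response element printed above, thus differed in sign.

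The other 4 targets had small changes in counts, and the sign of each depended on the scale or setting. Phlda3, which encodes a small inhibitor of Akt signalling, stood at 42.56, 62.05 and 47.44 TPM in PBS and at 16.24, 21.03 and 41.08 TPM in PV-10 tumours. PV-10 tumour 3 lay just under the lowest PBS tumour, and in counts it exceeded all of them, at 85.7 CPM beside a PBS range of 69.6 to 80.3. Its log2 change was -0.22 (SE 0.28, edgeR adjusted p = 0.629), and 0.20 with PV-10 tumour 3 alone (adjusted p = 0.727, range over the alternatives 0.0586 to 0.949).

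Eda2r, the receptor for ectodysplasin A2, stood at 6.06, 8.76 and 6.96 TPM in PBS and at 3.73, 2.99 and 5.64 TPM in PV-10 tumours. Sesn1, which encodes sestrin 1, a stress-induced inhibitor of mTORC1 signalling, stood at 7.18, 7.14 and 6.19 TPM in PBS and at 4.52, 4.60 and 6.05 TPM in PV-10 tumours. Trp53inp1, a nuclear cofactor of p53 that also acts in autophagy, stood at 4.48, 7.37 and 5.91 TPM in PBS and at 2.38, 3.01 and 5.38 TPM in PV-10 tumours. Eda2r and Sesn1 were lower in all PV-10 tumours in TPM, and Trp53inp1 overlapped through PV-10 tumour 3. In counts all 3 genes overlapped. Their log2 changes were -0.02 for Eda2r (SE 0.24, edgeR adjusted p = 0.963), 0.27 for Sesn1 (SE 0.24, adjusted p = 0.470) and 0.04 for Trp53inp1 (SE 0.26, adjusted p = 0.939). In log2(TPM + 1) Sesn1 reversed to -0.38 and Trp53inp1 to -0.63, neither of them past the threshold (limma adjusted p = 0.406 and 0.224).

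Which of the 10 genes passed changed with the setting, while the signs of Cdkn1a, Zmat3, Mdm4, Trp53 and Ccng1 did not. Cdkn1a, Zmat3, Mdm4 and Ccng1 passed with DESeq2 size factors, library size alone, DESeq2, no low-count filter or a mean count of at least 50, where 11.5%, 11.1%, 27.1%, 11.9% and 17.1% of all genes passed. With limma-voom Cdkn1a, Zmat3 and Ccng1 passed (9.14% of all genes), and in the non-robust fit Ccng1 alone (6.72% of all). In log2(TPM + 1) and log2(TPM + 0.1) Cdkn1a, Zmat3, Mdm4 and Trp53 passed, where 18.3% and 18.1% of all genes did. Without PV-10 tumour 3 the first 4 and Trp53 passed (41.4% of all genes). Without PBS tumour 1, 2 or 3, or PV-10 tumour 1 or 2, none of the 10 did, where 0.00356%, 0.00721%, 0.00357%, 0.00879% and 0.021% of all genes passed. With the trend in effective length, or in transcript length and GC content, removed from each library, no gene of the 22056 passed (0.0% of all, edgeR, with 5935 and 5747 at an unadjusted p under 0.05). Cdkn1a then had a log2 difference of -1.40 or -1.29 and Ccng1 of 1.43 or 0.85, so their size changed by less than 1.5 times, and Mdm4 had -1.10 or -0.91.

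**Figure D3:**
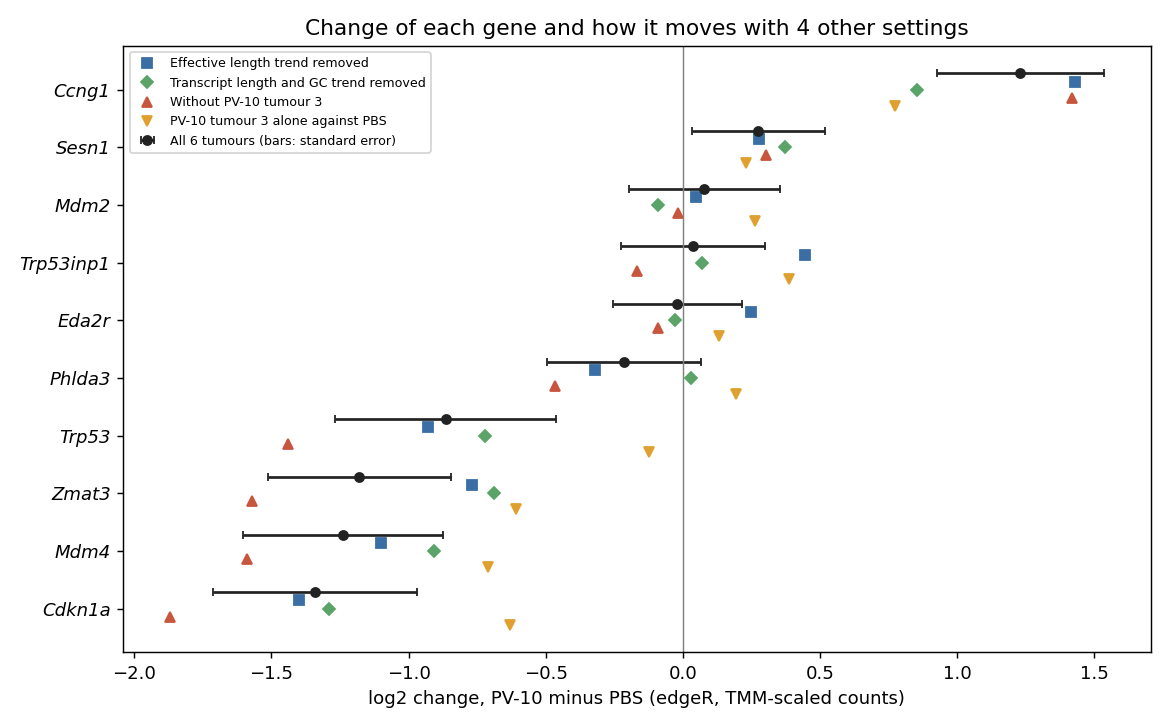
Log2 change of each gene, PV-10 minus PBS, in all 6 tumours (black, bars are standard errors) and in 4 other settings; the axis is log2. Cdkn1a, Mdm4, Zmat3 and Trp53 lie left of 0 and Ccng1 right of it in all 5, and PV-10 tumour 3 alone is nearest 0 for these genes.

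Balance within the loop was read from ratios of TPM in each tumour, which do not depend on the scaling between libraries. Mdm2 exceeded Trp53 by 3.23, 4.45 and 3.37 times in PBS and by 10.4, 8.6 and 4.72 times in PV-10 tumours, so the ratio was higher in every PV-10 tumour, the lowest of which was close to the highest PBS tumour. Mdm2 exceeded Cdkn1a by 5.76, 5.77 and 4.51 times in PBS and by 21.2, 15.5 and 9.91 times in PV-10 tumours, again without overlap. The Mdm2 to Cdkn1a ratio was added to the planned ones. It pairs Mdm2 with the gene of largest negative change, so its separation follows in part from that choice. Mdm2 to Mdm4 stood at 63.8, 30.3 and 28.6 in PBS and at 73.4, 49.6 and 83.7 in PV-10 tumours, which overlapped through PBS tumour 1. Cdkn1a to Trp53 stood at 0.561, 0.772 and 0.747 in PBS and at 0.488, 0.554 and 0.476 in PV-10 tumours, lower in all PV-10 tumours but with PV-10 tumour 2 just under PBS tumour 1. These ratios were not tested.

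**Figure D4:**
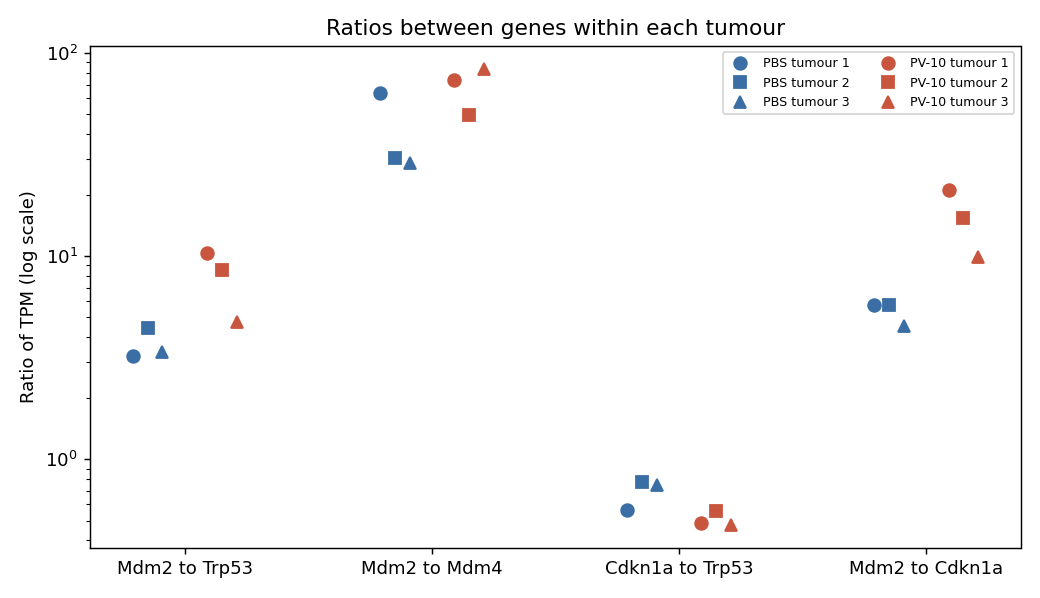
TPM ratios between pairs of genes within each tumour, on a log axis, with 1 point per tumour (blue PBS, red PV-10). Mdm2 to Trp53 and Mdm2 to Cdkn1a are higher in all PV-10 tumours, by least in PV-10 tumour 3 (4.72 and 9.91). The Mdm2 to Cdkn1a ratio was added to the planned ones.

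Genes whose centred log2 CPM followed Mdm2 or Cdkn1a most closely were sought among 5044 abundant genes over the 6 tumours, by root mean square difference. Closest to Mdm2 were the ribonuclease inhibitor Rnh1 (0.04) and Perp (0.07), a junction gene that is itself a p53 target, then Psmd4, Polr2m and Fcho2. Closest to Cdkn1a were the actin crosslinker Actn1 (0.03) and the taurine transporter Slc6a6 (0.05), then Micall1, Rapgef1 and Arhgef17. Actn1 stood at 610, 536 and 552 CPM in PBS and at 150, 165 and 350 CPM after PV-10. That it shares the middle place of PV-10 tumour 3 with Cdkn1a follows from how it was chosen. This is a likeness over 6 libraries that share depth and length trends.

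The wider pathway held 109 further genes in 7 lists, some in more than 1 list, of which 107 were tested. Of these 6 passed as lower (1.92% of all genes did) and 4 as higher (3.17% of all), with a median log2 change of -0.33 against 0.30 for all genes. The median of all genes was 0.06 with a mean count of at least 50, so the distance from it depends on the filter. None of these 10 passing genes passed with either length trend removed, and no gene of the lists passed when any single tumour other than PV-10 tumour 3 was left out. Without PV-10 tumour 3, 57 passed, where 41.4% of all genes did. With PV-10 tumour 3 alone against PBS none passed, and the medians of the cell death targets and of the paralogs were 0.24 and -0.27, opposite in sign to those given below.

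A list of 16 genes upstream of p53, which holds kinases, acetyltransferases and DNA damage adaptors or repair genes such as Trp53bp1, Mdc1 and Nbn, held 4 of the 6 lower ones. The 4 are kinases or acetyltransferases. Of all genes tested, 1.92% passed as lower, and with either length trend removed none of the 16 passed. The median of the list was -0.63, and it was -0.36 without the effective length trend and -0.22 without the length and GC trend. The acetyltransferase gene Crebbp stood at 423, 367 and 358 CPM in PBS and at 69.2, 84.8 and 179.9 CPM after PV-10, a log2 difference of -1.78 (SE 0.38, edgeR adjusted p = 0.0443). Its relative Ep300 fell from 349 ± 33.3 to 114 ± 56.8 CPM (log2 change -1.62, adjusted p = 0.0470). Hipk2, a kinase of p53 in the death response, fell from 318 ± 13.9 to 80.6 ± 50.6 CPM (log2 change -1.98, adjusted p = 0.0451). Atm, the kinase of the DNA break response, fell from 55.0 ± 7.16 to 24.6 ± 6.17 CPM (log2 change -1.16, adjusted p = 0.0488, all n = 3 per group), but its TPM overlapped between groups. All 4 are long genes in this scale, with 2.39 to 4.13 times the effective length of the median gene.

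Among feedback genes and partners of p53, 1 of 15 tested passed (5.09% of all genes did), and the median was -0.82. The median was -0.55 without the effective length trend and -0.56 without the length and GC trend. Huwe1, a ubiquitin ligase for p53, stood at 837, 926 and 897 CPM in PBS and at 195, 235 and 412 CPM after PV-10, a log2 difference of -1.66 (SE 0.34, edgeR adjusted p = 0.0443). Huwe1 is also long, with 4.59 times the effective length of the median gene. Cdkn2a, the gene of the Mdm2 inhibitor Arf and of p16, was singled out after its values were seen because it opposes Mdm2. It was expressed in all tumours, at 76.48, 99.33 and 59.54 TPM in PBS and 25.94, 38.40 and 49.21 TPM in PV-10 tumours, with a log2 change in counts of -0.27 (SE 0.28, edgeR adjusted p = 0.534). RSEM gene values do not separate Arf from p16.

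In counts, 3 of 5 ribosomal protein genes listed for binding Mdm2 passed as higher (3.17% of all genes did) and none was lower. In TPM, Rpl5, Rps7 and Rps27l were higher in every PV-10 tumour (9.58% of all genes were) and Rpl11 overlapped. Rpl23 overlapped too, and its mean TPM was lower, at 540.1 in PBS and 503.0 after PV-10. Rpl5 stood at 807, 849 and 831 CPM in PBS and at 5057, 4231 and 2072 CPM after PV-10, a log2 difference of 2.19 (SE 0.36, edgeR adjusted p = 0.0443). Rps7 rose from 494 ± 70.9 to 1491 ± 368 CPM (log2 change 1.59, adjusted p = 0.0443). Rps27l, a short p53 target gene related to ribosomal protein S27, rose from 58.3 ± 14.9 to 426 ± 297 CPM (log2 change 2.87, adjusted p = 0.0443, all n = 3 per group), with 118 CPM in PV-10 tumour 3 and 711 and 449.6 in the other PV-10 tumours. Rpl11 stood at 310.5 ± 45.7 and 643 ± 126 CPM (adjusted p = 0.0565). Rpl23 stood at 559 ± 126 and 892 ± 47.5 CPM (adjusted p = 0.138). Ribosomal protein genes have many near-identical pseudogenes among which reads can be split, so these values are uncertain. The 5 are short, at 0.157 to 0.594 times the effective length of the median gene, and without the effective length trend the list's median was 1.36 with none passing.

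Further p53 targets were listed by role, and the counts that passed are to be read beside the 5.09% of all genes. Of 18 arrest and growth genes none passed, and the median was -0.43. The most abundant of them were the peroxidase Gpx1, with 171 ± 21.0 and 325 ± 52.1 CPM (log2 change 0.93, adjusted p = 0.0625), and cyclin D2, Ccnd2, with 376 ± 20.9 and 191 ± 103 CPM (log2 change -0.97, adjusted p = 0.115, all n = 3 per group). Of 17 cell death genes 1 passed, the small apoptosis inhibitor Triap1, which rose from 3.45 ± 0.868 to 12.75 ± 6.29 CPM (log2 change 1.89, SE 0.41, edgeR adjusted p = 0.0443), and the median of the list was -0.19. Of 26 repair and metabolism genes 1 passed, the semaphorin receptor Plxnb2, which fell from 257 ± 14.2 to 89.5 ± 42.2 CPM (log2 change -1.52, SE 0.35, edgeR adjusted p = 0.0457), and the median was -0.43. None of 13 tested paralogs of the 10 genes passed, with a median of 0.53. The log2 change was negative in 4 of them, Sesn2, Sesn3, Phlda1 and Trp53inp2, at -1.23 to -0.77. The largest positive changes, 4.71 in Zmat4 and 4.01 in Tnfrsf19, were of genes with means of 0.125 and 0.178 TPM. The most abundant were Phlda1, with 197 ± 41.7 and 116 ± 44.5 CPM (adjusted p = 0.163), and Cdkn1b, the gene of the kinase inhibitor p27 and a relative of Cdkn1a. Cdkn1b stood at 113 ± 19.1 and 158 ± 35.4 CPM (adjusted p = 0.294), but at means of 36.0 and 31.3 TPM.

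**Figure D5:**
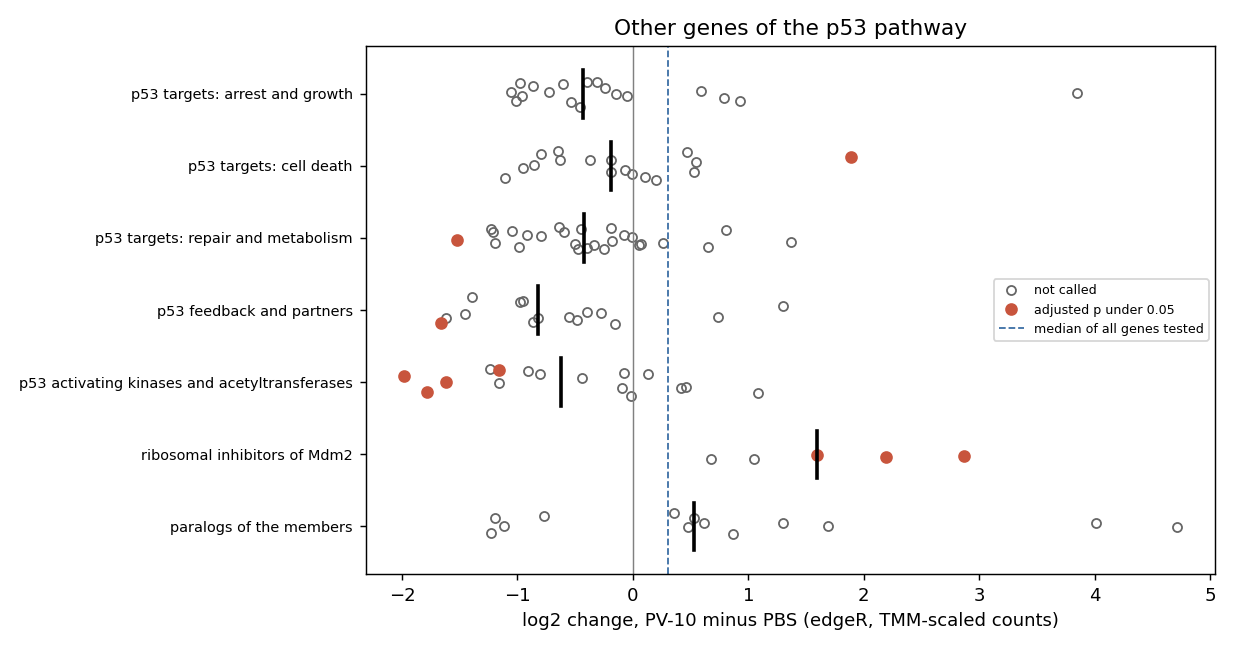
Log2 change, PV-10 minus PBS, of each tested gene in 7 lists of the p53 pathway (filled: adjusted p under 0.05), with the list's median (black line) and the median of all genes tested (dashed, 0.30). The 3 lists of p53 targets, the feedback list and the list of kinases and acetyltransferases, which also holds DNA damage adaptors and repair genes, have medians below 0, and the 5 ribosomal genes lie above 0.

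Markers of the cell types a tumour can hold were summed in each tumour. Summed levels of the 4 endothelial markers were 34.2 to 99.3 TPM in PBS and 10.94 to 53.4 TPM in PV-10 tumours. Sums of the 7 epithelial markers were 349 to 424 and 154 to 298 TPM, and those of the 7 leukocyte markers 147 to 227 and 55.9 to 121 TPM. The most abundant markers, Krt18 and Krt8, and Cd68 (means 138.8 and 48.7 TPM), weigh most in these 2 sums. In counts the log2 change was negative in 2 of the 7 epithelial and 2 of the 7 leukocyte markers. Their medians were 0.09 and 0.50, against 0.30 for all genes. The 6 fibroblast markers summed to 343 to 1029 and 315 to 511 TPM. The 5 skeletal muscle markers reached 104.4 TPM in PV-10 tumour 2, beside 2.17 to 18.6 TPM in the other tumours, and the 4 adipocyte markers stood at 4.59 to 7.7 TPM in all. No tested marker gene passed, and none was listed at 0 in all 6 tumours. Without PV-10 tumour 3, where 41.4% of all genes passed, 4 of 4 endothelial, 4 of 5 muscle, 2 of 7 epithelial, 2 of 7 leukocyte, 2 of 6 fibroblast and 1 adipocyte marker passed, and the endothelial median went from -0.78 to -1.39. PV-10 tumour 3 had the highest epithelial, leukocyte and endothelial sums of its group, as it had the highest Trp53 and Cdkn1a levels. Their part in the levels of the 10 genes was not tested.

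Reads of other genes could add little to these values. No expressed gene overlapped Mdm2 or Trp53, the genes that overlap Mdm4, Cdkn1a and Sesn1 were at 0.56 TPM or less, and the pseudogenes Mdm4-ps and Trp53-ps were at 0.5 TPM or less in every tumour.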

How the data were processed

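Per the labels' protocols, the authors trimmed adapters (BBMerge 37.02, cutadapt 1.8.1), used STAR 2.7.7a for alignment to mm10, and quantified the Gencode vM21 genes by RSEM 1.3.0. The deposited count table holds estimated counts as whole numbers, not normalized, and the deposited TPM table holds length-scaled values of the same libraries, both for 55450 genes. Per the labels' protocols the authors tested with DESeq2.

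Counts were tested with edgeR 4.0.16 (R 4.3.3) by the robust quasi-likelihood F test, with its default expression filter, TMM scaling and p-values adjusted by Benjamini-Hochberg over the 22056 genes; a gene passed at an adjusted p under 0.05. The biological coefficient of variation was 0.777. The 6 tumours are separate samples in the labels, which do not number the mice. CPM are TMM-scaled. Library totals were 36730318 to 98717951 counts. Effective length was taken from counts over TPM; 228 tested genes had none. Alternatives were the size factors of DESeq2, DESeq2 1.42.0 itself, scaling by library size, limma 3.58.1 (voom, or log2 TPM with a pseudocount of 1 or 0.1), other filters, a non-robust fit, removed length trends (splines, 5 degrees of freedom), a replicate block and each tumour left out. PV-10 tumour 3 alone, the lowest level at which effective length was computed, and the p53 consensus and its mismatch limit were chosen after seeing the data. The ratio of Mdm2 to Cdkn1a was added to those planned. The 10 genes and the lists were chosen with earlier results of these data known. The text names all 10, up to 4 passing genes per list or else its 2 most abundant, neighbours of Mdm2 with a mean of at least 10 TPM, the 3 genes on each side of Mdm2 in order of level, and the 5 genes most like Mdm2 and Cdkn1a. The test was checked on simulated counts, which held no tumour that stood apart from its group and no excess of detected genes in single tumours. That check cannot show how the test behaves where these occur.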

Additional observations from a re-analysis of the deposited data

How the results depend on the processing

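The main limits are 3 tumours per group, 1 PV-10 tumour that lay near the PBS tumours, and library trends with length, which differ between the groups. A further limit is that PV-10 tumours 1 and 2 had the most genes with a count, from the smallest libraries. The median log2 change of all genes was 0.30 in the reported test, 1.63 without a filter and 0.06 with a mean count of at least 50. Genes passing over the whole table were 2537 with DESeq2 size factors, 2441 with library size alone, 7945 with DESeq2, 2016 with limma-voom, 4664 without a filter, 2705 with a mean count of at least 50, 4037 and 3998 in log2 TPM with a pseudocount of 1 and 0.1, and 0 with either length trend removed (5935 and 5747 at an unadjusted p under 0.05, edgeR). Of the 10 genes, in the same order, 4, 4, 4, 3, 4, 4, 4, 4, 0 and 0 passed, and 1 in the non-robust fit; of the wider lists 20, 20, 39, 18, 32, 23, 32, 31, 0 and 0, against 10 in the reported test. The split of all passing genes was 699 higher and 423 lower, but 980 and 1461 with library size alone, 835 and 1181 with limma-voom, 2037 and 2627 without a filter, 5675 and 2270 with DESeq2, and 251 and 3786 in log2(TPM + 1). Leaving out 1 tumour gave 1 to 11399 genes in all, 0 to 5 of the 10 and 0 to 57 of the lists; the highest value in each came without PV-10 tumour 3. PV-10 tumour 3 alone against PBS (its spread taken from PBS) gave 18, 0 and 0.

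Same-numbered tumours had correlations of deviations of -0.0486, 0.0711 and 0.0722, and those with unlike numbers -0.113 to 0.08. These values show no pairing by number, but with 3 tumours per group they cannot exclude it. With the replicate block 2872 genes, 4 of the 10 and 24 of the lists passed (1054 higher and 1818 lower in all), and with the replicate block and the effective length trend removed 1579, 2 and 15.

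Over all alternatives, 134 values of the 10 genes kept direction and side of the threshold, 43 newly passed and 23 reversed. None could be lost, because none of the 10 genes passed in the reported test. The reversals, all of genes whose reported change was within 0.3 of 0, were as follows. Mdm2 went to -0.0181 with library size alone, -0.76 with either TPM pseudocount, -0.0898 without the length and GC trend, and between -0.0652 and 0.167 with 1 tumour left out. Phlda3 went to 0.0301 without the length and GC trend and 0.20 for PV-10 tumour 3 alone. Sesn1 went to -0.38 and -0.44 in log2 TPM with a pseudocount of 1 and 0.1. Trp53inp1 went to -0.0662 with library size alone, -0.0623 without a filter, -0.63 and -0.76 in log2 TPM with a pseudocount of 1 and 0.1, and between -0.168 and 0.188 with 1 tumour left out. Eda2r went to 0.0893 with DESeq2 size factors, 0.0828 with DESeq2, 0.14 with the stricter filter, 0.25 without the effective length trend, 0.24 with the replicate block and that trend removed, 0.13 for PV-10 tumour 3 alone, and between -0.0919 and 0.0631 with 1 tumour left out. The cause was not tested. The median rank of Mdm2 over the 6 tumours, 136 by TPM, was 45 by CPM, which are not scaled by length.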
